A study of Bos taurus with 7 samples.

Results

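The genes described here were 6 connexins (*GJA1*, *GJA4*, *GJA5*, *GJB2*, *GJB6* and *GJC1*) and the pannexin *PANX1*, taken by gene symbol from the 23704 genes with a matched RefSeq transcript. They were 7 of the 19 matched connexin and pannexin genes used here. RNA sequencing was performed on whole preantral follicles of *Bos taurus*, in 3 libraries of secondary follicles (SF) and 4 libraries of primary follicles (PF). Both groups were isolated mechanically from ovaries of young Holstein Friesian dairy cows. All follicles had a short recovery in medium that held recombinant human FSH and insulin, and were then lysed without any further culture. Neither group carried a genetic change or another drug treatment. Each library was made from many pooled follicles, so it averages over follicles and animals, and it holds oocyte and granulosa cell RNA in 1 extract. A primary follicle has 1 layer of cuboidal granulosa cells around the oocyte, whereas a secondary follicle has more than 1.

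Connexins form the channels of gap junctions, through which neighbouring cells exchange ions, nucleotides and small metabolites. In the follicle, granulosa cells are coupled to each other and, through thin projections that cross the zona pellucida, to the oocyte, which receives metabolites and cyclic nucleotides by this path. In the mouse, *GJA1* (connexin Cx43) makes the junctions between granulosa cells and *GJA4* (Cx37) those on the oocyte surface, and the loss of either gene impairs follicle growth. Pannexins are related membrane channels that release ATP and do not usually form junctions between cells.

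The libraries held 18788105 to 23764615 estimated counts, and 12188 to 13034 genes reached a level of 1 TPM in each. TPM gives a transcript's share of a library after division by its length, so levels of different genes are compared in this unit. The study left out PF replicate 4, and fold changes below are from a DESeq2 fit without it (3 SF against 3 PF libraries), with its levels given beside the others. Over 12 stromal fibroblast markers the mean log2(TPM + 1) was 2.60 to 3.59 in SF, 6.51 in PF replicate 4 and 2.44 to 3.41 in PF replicates 1 to 3. The mean over 27 oocyte markers was 3.27 to 5.28 in SF, 5.97 to 7.0 in PF replicates 1 to 3 and 4.12 in PF replicate 4. Over 27 granulosa markers it was 4.97 to 5.64 in SF, 3.88 to 4.43 in PF replicates 1 to 3 and 4.78 in PF replicate 4. The balance of oocyte and granulosa RNA therefore differed between the groups together with the stage, and in such libraries fewer cells of a type and less RNA per cell cannot be told apart.

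*GJA1* and *GJA5* were higher and *GJB2* was lower in SF than in PF, while *GJA4*, *GJC1* and *PANX1* did not pass the test. Of the 7 genes, 6 could be tested, and the 3 calls (adjusted p below 0.05 in DESeq2) stand against 19.1% of all 15056 genes tested. For higher levels in SF the share over all genes was 8.14%, with 2 of the 6 genes called, and for lower levels it was 11%, with 1 of the 6 called. The TPM of SF and of PF replicates 1 to 3 did not overlap for 5 of the 6 genes, against 32.7% of all genes tested. The median log2 fold change of the 6 genes was −0.22, against 0.02 over all genes tested. No gene passed an adjusted p of 0.05 in edgeR's quasi-likelihood test of the same libraries, although 4044 had an unadjusted p below 0.05 there (4800 in DESeq2). The calls in the text are those of DESeq2, the tool used in the study. In simulated counts with 200 changed genes, DESeq2 called 221 genes, of which only 130 were changed, more false calls than its threshold allows. There edgeR called 70 genes, of which 67 were changed. The simulation changed 200 of 14877 genes, a much smaller share than was called in the real data. The share of false calls depends on how many genes change, so it does not carry over to these data. Single DESeq2 calls below may still be less certain than their adjusted p states, and by how much was not tested.

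**Figure D1:**
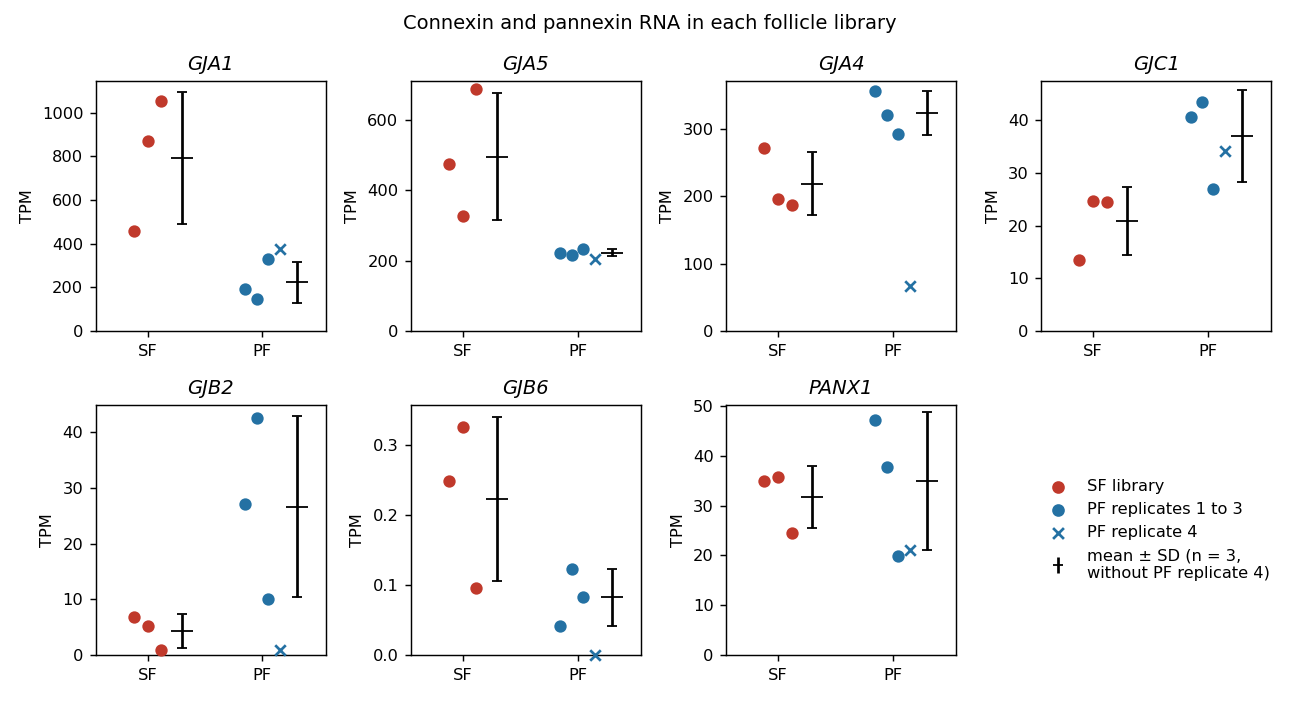
Level of each gene in TPM on a linear axis from 0, with 1 point per library (3 SF libraries left, 4 PF libraries right, PF replicate 4 as a cross), and black bars for the mean and SD of SF and of PF replicates 1 to 3. *GJA1* and *GJA5* lie higher in all 3 SF libraries than in PF replicates 1 to 3, *GJB2*, *GJC1* and *GJA4* lie lower, and *PANX1* overlaps.

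*GJA1* encodes Cx43, the connexin of granulosa cell junctions, and had the highest mean TPM of the connexins in SF. It had 458, 868 and 1051 TPM in SF replicates 1 to 3, against 193, 148 and 329 TPM in PF replicates 1 to 3 and 376 TPM in PF replicate 4. Every SF library was above every PF library, and the lowest SF library was nearer to the highest PF libraries than to the other SF libraries. The mean was 792 ± 304 TPM in SF and 224 ± 94.4 TPM in PF (SD, n = 3 each). The fold was 3.72 (95% interval 1.82 to 7.59), a log2 fold change of 1.89 ± 0.53 (SE) with an adjusted p of 0.0042 in DESeq2. Among all genes of a library, ordered by TPM, *GJA1* took ranks 288, 116 and 123 in SF, against 1037, 1339 and 439 in PF replicates 1 to 3 and 446 in PF replicate 4. The fit of all 7 libraries gave a log2 fold change of 1.61 with an adjusted p of 0.056 in DESeq2. The difference of mean log2(TPM + 1), SF minus PF, was 1.43 among libraries numbered below 40 (1 SF, 2 PF) and 1.53 among those numbered above 40 (2 SF, 1 PF).

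The 3 genes whose log2(TPM + 1) followed *GJA1* most closely over the 7 libraries, among 8129 genes with a mean of 10 TPM or more, were *NECTIN2*, *IVNS1ABP* and *CXCR4*, with Pearson's r of 0.992, 0.990 and 0.985. *NECTIN2* encodes a cell adhesion protein of the immunoglobulin superfamily, and *CXCR4* the receptor of the chemokine CXCL12. *CXCR4* had 50.9, 115 and 139 TPM in SF, against 21.3, 19.7, 36.7 and 35.0 TPM in PF replicates 1 to 4. These correlations describe libraries that also differ in stage and cell mixture.

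*GJA4* encodes Cx37, the connexin of the oocyte side of the junction in the mouse. It had 272, 195 and 187 TPM in SF replicates 1 to 3, against 356, 321 and 292 TPM in PF replicates 1 to 3 and 67.3 TPM in PF replicate 4. The SF libraries lay below PF replicates 1 to 3 without overlap, and PF replicate 4 lay below them all. The means were 218 ± 46.5 TPM in SF and 323 ± 32.1 TPM in PF (SD, n = 3 each). The log2 fold change of −0.45 ± 0.27 (SE) did not pass the test, with an adjusted p of 0.25 in DESeq2, and the fold of 0.731 had a 95% interval of 0.505 to 1.06. Of the 27 oocyte markers, 18 were lower in SF, none was higher, and their median log2 fold change was −1.89.

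Set against the oocyte markers within each library, *GJA4* lay higher in the SF libraries than in the PF libraries. This was not particular to *GJA4*. *GJA1*, *GJA5* and *PANX1* also lay higher in SF than in PF replicates 1 to 3 on this measure, while *GJB2* and *GJC1* overlapped. So did *GJB6* lie higher, but at no more than 0.33 TPM its difference mostly mirrors the oocyte mean and is no result about *GJB6*. With size factors from the oocyte markers, the log2 fold change of *GJA4* (2.06) was below the median of all genes tested (2.57). The log2(TPM + 1) of *GJA4* exceeded the mean of the 27 oocyte markers by 3.06, 2.34 and 4.29 in SF replicates 1 to 3, against 1.61, 1.33 and 2.22 in PF replicates 1 to 3 and 1.98 in PF replicate 4. All 3 SF libraries were above all 4 PF libraries. SF minus PF was 1.51 without PF replicate 4, with p = 0.1 in an exact two-sided permutation test, which is the smallest p that 3 against 3 libraries allow (0.15 after Benjamini-Hochberg adjustment over 3 such comparisons). With all 7 libraries it was 1.44, with an exact permutation p of 0.0286, which is the smallest that 3 against 4 allow. Without SF replicate 3 the difference was 0.98 (exact permutation p of 0.2, where 0.1 is the smallest possible). It was 1.59 among libraries numbered below 40 and 1.09 among those above 40.

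The corresponding comparison of *GJA1* with the 27 granulosa markers gave differences of 3.87, 4.60 and 4.39 in SF, against 3.18, 3.06, 4.49 and 3.77 in PF replicates 1 to 4. PF replicate 3 lay within the SF values. SF minus PF was 0.71 without PF replicate 4, with p = 0.3 in the exact permutation test (0.3 after adjustment). It was 1.17 without PF replicate 3 and 0.45 without PF replicate 2 (exact permutation p of 0.1 and 0.6, where 0.1 is the smallest possible). It was 0.75 among libraries numbered below 40 and 0.01 among those above 40. The granulosa markers themselves were higher in SF for 13 of 23 tested, lower for none, with a median log2 fold change of 1.47.

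**Figure D2:**
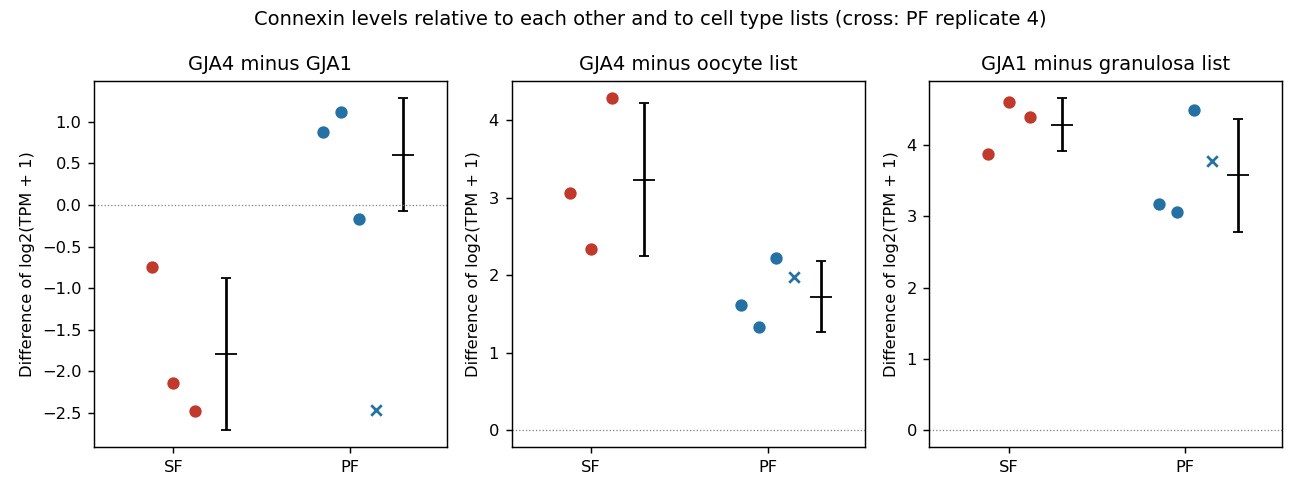
Within-library differences of log2(TPM + 1), with 1 point per library (SF left, PF right, PF replicate 4 as a cross), for *GJA4* minus *GJA1*, *GJA4* minus the mean of the oocyte markers and *GJA1* minus the mean of the granulosa markers. *GJA4* minus the oocyte markers is 2.34 or more in SF and at most 2.22 in PF, while *GJA1* minus the granulosa markers overlaps.

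The balance of *GJA4* to *GJA1* did not overlap between SF and PF replicates 1 to 3. *GJA4* minus *GJA1*, in log2(TPM + 1), was −0.75, −2.14 and −2.48 in SF replicates 1 to 3, against 0.88, 1.11 and −0.17 in PF replicates 1 to 3 and −2.47 in PF replicate 4. *GJA1* exceeded *GJA4* in every SF library, while *GJA4* exceeded *GJA1* in PF replicates 1 and 2. SF minus PF was −2.40, with p = 0.1 in the exact permutation test, again the smallest possible (0.15 after adjustment). PF replicate 4 lay among the SF libraries, and over all 7 libraries SF minus PF came to −1.63 (exact permutation p of 0.143). Within the libraries numbered below 40 it was −1.74, and within those above 40 it was −2.14.

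The 3 genes most like *GJA4* over the 7 libraries were *CAMKMT*, *ZNF181* and *NIPAL2*, with Pearson's r of 0.980, 0.978 and 0.978. All 3, like *GJA4*, had their lowest level in PF replicate 4, the library left out of the fit, with 3.16 TPM for *CAMKMT*, 1.40 TPM for *ZNF181* and 13.9 TPM for *NIPAL2*, against at least 7.81, 12 and 28.9 TPM in the other libraries. *CAMKMT* encodes a methyltransferase of calmodulin and *ZNF181* a zinc finger protein.

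*GJA5* encodes Cx40, best known from arterial endothelium and the atria of the heart. It was abundant in both groups, with 473, 327 and 685 TPM in SF replicates 1 to 3, against 221, 216 and 233 TPM in PF replicates 1 to 3 and 206 TPM in PF replicate 4. The 4 PF libraries were close to each other, and all 3 SF libraries were above them. The means were 495 ± 180.4 TPM in SF and 223 ± 8.59 TPM in PF (SD, n = 3 each). The fold was 2.39 (95% interval 1.35 to 4.24), a log2 fold change of 1.26 ± 0.42 (SE) with an adjusted p of 0.021 in DESeq2. The adjusted p was 0.11 without PF replicate 1, 0.12 without PF replicate 2 and 0.055 without SF replicate 3. The difference of mean log2(TPM + 1) was 1.11 among libraries numbered below 40 and 1.02 among those above 40.

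Endothelial markers were measured in the same libraries, and their part in the *GJA5* result was not tested. The defining genes *PECAM1* and *CDH5* had at most 1.00 and 0.054 TPM, both in SF replicate 1, and the summed level of 13 endothelial markers was 29.1 to 140 TPM in SF, 116 to 191 TPM in PF replicates 1 to 3 and 54.7 TPM in PF replicate 4. *FLT1*, a receptor of vascular endothelial growth factor, made up much of the PF sums and was lower in SF, with 34.5, 44.1 and 6.65 TPM, against 142, 133 and 81.8 TPM in PF replicates 1 to 3 and 14.2 TPM in PF replicate 4. The tight junction gene *CLDN5* overlapped, with 91.7, 37.9 and 19.2 TPM in SF, against 38.3, 28.9, 17.9 and 29.0 TPM in PF replicates 1 to 4. *FLT1* was the only endothelial marker that passed the test, of 9 tested, and its adjusted p in DESeq2 was 0.0084 (0.056 without PF replicate 1, 0.059 without PF replicate 2, 0.29 with all 7 libraries). The median log2 fold change of these 9 was 0.70, against 0.02 over all genes tested. *ROBO4* was higher in SF without overlap, with 1.40, 1.72 and 1.27 TPM, against 0.00, 0.70, 0.00 and 0.00 TPM in PF replicates 1 to 4. *TEK* lay lower in SF than in PF replicates 1 to 3 without overlap. *GJA5* was counted over 2 transcript models, and the curated model held 33.8, 32.9 and 29.2% of its TPM in SF, against 16.5, 37.7, 29.2 and 24.9% in PF replicates 1 to 4.

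*GJA1*, *GJA4* and *GJA5* together made up most connexin RNA in every library. The summed TPM of the 16 connexin genes used here was 1225, 1423 and 1953 in SF, against 844, 773 and 896 in PF replicates 1 to 3 and 684 in PF replicate 4. *GJA1* held 37.4, 61.0 and 53.8% of this sum in SF, against 22.9, 19.1 and 36.8% in PF replicates 1 to 3. *GJA4* held 22.2, 13.7 and 9.6% in SF, against 42.2, 41.5 and 32.6% in PF replicates 1 to 3. The shares of *GJA1* and *GJA4* did not overlap between these groups and ran in opposite directions. For *GJA1*, SF replicate 1 (37.4%) and PF replicate 3 (36.8%) were close. Shares of the same sum push each other down, so the opposite directions are not a result separate from the levels above. PF replicate 4, with 55.0% *GJA1* and 9.83% *GJA4*, lay near the SF libraries. The share of *GJA5* overlapped, at 38.6, 23.0 and 35.1% in SF and 26.2, 27.9 and 26.0% in PF replicates 1 to 3.

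**Figure D3:**
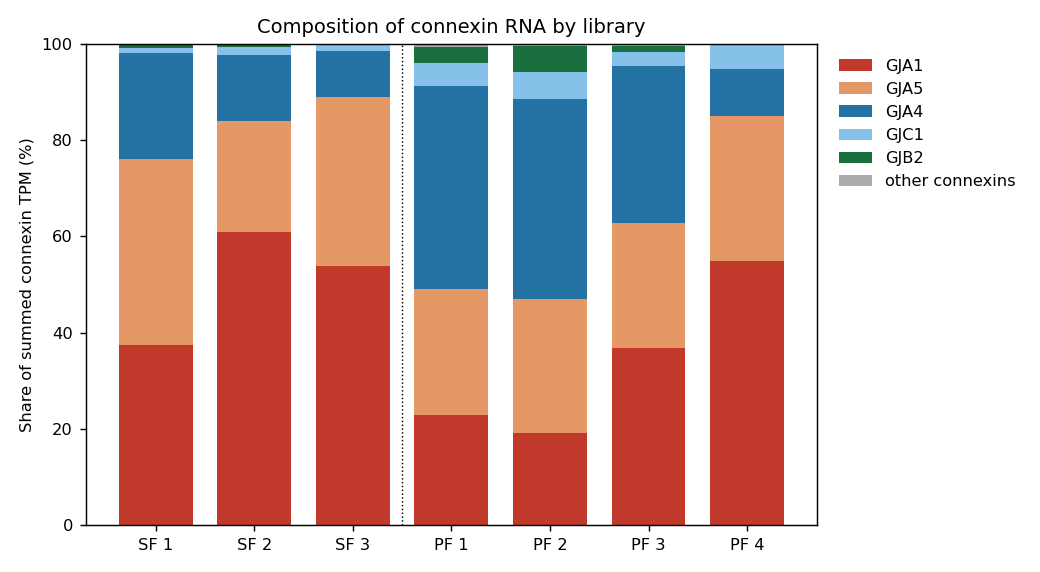
Share of summed connexin TPM, in percent, held by each connexin gene in each library, as stacked bars from 0 (SF libraries left, PF libraries right). *GJA1* takes 37.4 to 61.0% in SF and 19.1 to 36.8% in PF replicates 1 to 3, and *GJA4* 9.6 to 22.2% in SF and 32.6 to 42.2% in PF replicates 1 to 3.

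By level per transcript length, *GJA1* and *GJA5* overlapped at the top in SF, followed by *GJA4* and then by *PANX1* and *GJC1*, which overlapped each other. In PF replicates 1 to 3, *GJA4* was above *GJA5* in TPM without overlap, while *GJA1* overlapped both. *GJC1*, *PANX1* and *GJB2* overlapped in PF, whereas *GJB2* was below the other pair in SF. *GJB6* was the lowest in both groups.

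*GJB2* encodes Cx26, a connexin of epithelia and of the inner ear. It had 6.84, 5.16 and 0.89 TPM in SF replicates 1 to 3, against 27.2, 42.6 and 10.1 TPM in PF replicates 1 to 3 and 0.94 TPM in PF replicate 4. The SF libraries were below PF replicates 1 to 3 without overlap, and PF replicate 4 was as low as the lowest SF library. The log2 fold change was −2.52 ± 0.77 (SE) with an adjusted p of 0.011 in DESeq2, and the fold of 0.175 had a 95% interval of 0.061 to 0.50. The adjusted p was 0.12 without PF replicate 2, and 0.22 with all 7 libraries.

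Epithelial and oocyte markers were measured in the same libraries, and their part in the *GJB2* result was not tested. The epithelial keratin *KRT19* had 29.4, 34.2 and 2.79 TPM in SF, against 73.5, 172, 148 and 23.6 TPM in PF replicates 1 to 4, and was the only gene called among 5 tested markers of the ovarian surface epithelium (adjusted p of 0.011 in DESeq2, 0.076 without PF replicate 2, 0.11 with all 7 libraries). The mean log2(TPM + 1) of the 6 markers of that list was 2.06 to 2.63 in SF, 2.71 to 3.03 in PF replicates 1 to 3 and 1.59 in PF replicate 4. The median log2 fold change of the 5 tested was −0.85. Other markers of the list did not follow *KRT19*. *MSLN* had 128, 78.1 and 38.9 TPM in SF, against 49.4, 29.4, 57.0 and 6.47 TPM in PF replicates 1 to 4. Its log2 fold change was 0.91 and that of *CDH1* 0.01, neither called. *GJB2* minus the mean of the oocyte markers was −2.06, −2.66 and −2.35 in SF, against −2.05, −1.56, −2.50 and −3.16 in PF replicates 1 to 4, and here the groups overlapped.

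*GJB6* encodes Cx30, which is paired with Cx26 in the inner ear. It was near the limit of detection, with 7, 8 and 2 estimated counts in SF, against 1, 3, 2 and 0 in PF replicates 1 to 4. Its level stayed at or below 0.33 TPM, the groups overlapped in estimated counts, and DESeq2 gave it no adjusted p. A difference was not detectable at this depth.

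*GJC1* encodes Cx45, known from the conduction system of the heart and from smooth muscle. It had 13.4, 24.7 and 24.5 TPM in SF replicates 1 to 3, against 40.6, 43.5 and 27.0 TPM in PF replicates 1 to 3 and 34.1 TPM in PF replicate 4. All SF libraries were below all PF libraries, with SF replicate 2 and PF replicate 3 close to each other. The log2 fold change was −0.86 ± 0.39 (SE) with an adjusted p of 0.11 in DESeq2, and the fold of 0.551 had a 95% interval of 0.323 to 0.941 before any adjustment. The difference of mean log2(TPM + 1) was −1.58 among libraries numbered below 40 and −0.13 among those above 40. The mean log2(TPM + 1) of 11 smooth muscle and pericyte markers was 2.26 to 2.69 in SF, 1.42 to 2.54 in PF replicates 1 to 3 and 3.57 in PF replicate 4, with 2 of 9 tested markers called higher in SF and none lower, and their part in the *GJC1* values was not tested.

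*PANX1* encodes the ATP-release channel pannexin 1. It had 34.8, 35.7 and 24.5 TPM in SF replicates 1 to 3, against 47.2, 37.6 and 19.9 TPM in PF replicates 1 to 3 and 21.1 TPM in PF replicate 4. The range of PF replicates 1 to 3 covered that of SF. The log2 fold change was 0.00 ± 0.34 (SE) with an adjusted p of 0.997 in DESeq2. The 95% interval of the fold, 0.631 to 1.59, holds only for size factors from all genes. With size factors from the oocyte and the granulosa markers the log2 fold change was 2.53 and −1.43 (adjusted p of 0.0066 and 0.00081 in DESeq2). Of the 5 transcript models of *PANX1*, the noncoding ones held 46.6, 50.4 and 46.3% of its TPM in SF, against 40.4, 42.2, 46.6 and 51.2% in PF replicates 1 to 4.

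The fold changes depended on whether size factors came from all genes, from oocyte markers or from granulosa markers. Across these, *GJA1* stayed above 0 and *GJB2* below 0, while *GJA4*, *GJA5*, *GJC1* and *PANX1* changed sign. The sign alone says little where the estimate lay within its SE of 0. That held for *GJA1* with the granulosa markers (0.38 ± 0.49, SE) and for *GJB2* with the oocyte markers (−0.51 ± 0.85). Neither was called there (adjusted p of 0.54 and 0.62 in DESeq2). The scarce *GJB6* stayed above 0 and was not called. With size factors from the 27 oocyte markers, the median of all genes moved by 2.57 on the log2 scale, and *GJA1*, *GJA4*, *GJA5* and *PANX1* were called higher in SF with log2 fold changes of 4.60, 2.06, 4.09 and 2.53 (adjusted p at most 0.032 in DESeq2). With size factors from the granulosa markers the median moved by −1.46, and no connexin was called higher. There *GJA4*, *GJB2*, *GJC1* and *PANX1* were called lower, with −1.89, −3.88, −2.35 and −1.43, while *GJA1* had 0.38 and *GJA5* had −0.25 (adjusted p of 0.54 and 0.62 in DESeq2). Over all genes, 8976 were called higher and 38 lower with the oocyte size factors, 106 higher and 7786 lower with the granulosa size factors, and 1226 higher and 1650 lower with those from all genes. Relative to those shifts of all genes, *GJA1* and *GJA5* were above the median gene and *GJB2* below it under both scalings. New size factors move all genes by nearly the same amount. These positions therefore repeat the fit with all genes and are not a further test of it.

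**Figure D4:**
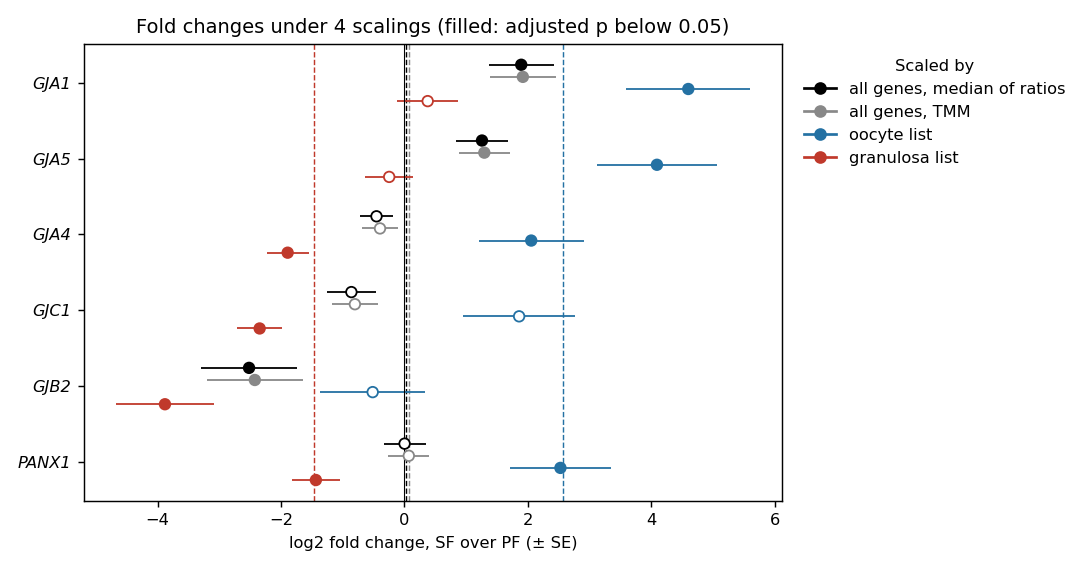
Log2 fold change, SF over PF, of each tested gene under 4 sets of size factors: all genes by median of ratios or by TMM, the oocyte markers, and the granulosa markers (points with SE bars, filled at an adjusted p below 0.05, DESeq2 without PF replicate 4; dashed lines, median of all genes). *GJA4* is at −0.45 with all genes, 2.06 with the oocyte markers and −1.89 with the granulosa markers.

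Of the other 13 connexin and pannexin genes considered, 12 were matched and *GJA9* was not analysed here. No read was assigned to *GJC3*, *GJD3*, *GJD4*, *GJE1* or *PANX3* in any of the 7 libraries, which allows up to 3 counts per library for each, counting error only. A further 3 (*GJA10*, *GJB7* and *GJD2*) had counts but a mean under 1 TPM in SF and in PF replicates 1 to 3, and 4 reached 1 TPM. Of 5 tested, 2 were lower in SF and none was higher, where 11% of all genes tested were called lower and 8.14% higher.

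*GJA3* encodes Cx46, a connexin of the eye lens, and was lower in SF. It had 0, 5 and 0 estimated counts in SF replicates 1 to 3, against 62, 61 and 74 in PF replicates 1 to 3 and 3 in PF replicate 4. Nearly all of its counts came from PF replicates 1 to 3, where it reached 2.04 to 2.5 TPM. The log2 fold change was −5.28 ± 1.54 (SE), with an adjusted p of 0.0068 in DESeq2, and of 0.055, 0.056 and 0.067 without PF replicate 1, 2 or 3.

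*PANX2* encodes a pannexin best known from the brain, and was also lower in SF. It had 1.51, 0.55 and 0.00 TPM in SF replicates 1 to 3, against 14.4, 5.16 and 6.81 TPM in PF replicates 1 to 3 and 0.92 TPM in PF replicate 4. The SF libraries lay below PF replicates 1 to 3, and PF replicate 4 lay among them. The log2 fold change was −3.57 ± 1.23 (SE) with an adjusted p of 0.025 in DESeq2. Leaving out PF replicate 1, 2 or 3 ended the call (adjusted p of 0.18, 0.063 and 0.066), as did leaving out SF replicate 2 (0.13) and fitting all 7 libraries (0.11).

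*GJB1*, which encodes a connexin of liver and Schwann cells, and *GJB5*, which encodes one of the epidermis, were detected in some libraries only. *GJB1* had 0.00, 2.27 and 3.76 TPM in SF, against 0.05, 0.55, 0.00 and 0.00 TPM in PF replicates 1 to 4. *GJB5* had 1.83, 0.05 and 0.00 TPM in SF, against 3.43, 0.00, 1.76 and 0.00 TPM in PF. The groups overlapped for both, and their adjusted p in DESeq2 were 0.28 and 0.78.

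Among 33 genes of gap junction scaffolding, phosphorylation and turnover, 2 were higher and 1 lower in SF, 30 did not pass the test (3 of 33 called, against 19.1% of all genes tested), and the median log2 fold change was 0.39, against 0.02 over all genes tested. *CDH2*, the N-cadherin that joins granulosa cells, had 14.9, 5.88 and 34.5 TPM in SF, against 0.91, 1.76 and 1.07 TPM in PF replicates 1 to 3 and 172 TPM in PF replicate 4. It was higher in SF by 4.06 ± 0.72 (log2, SE) without PF replicate 4, and the direction turned to −1.26 with all 7 libraries. *TUBB*, a tubulin of the microtubules that carry connexins to the membrane, was higher by 1.70 ± 0.36 without PF replicate 4. It had 220, 265 and 283 TPM in SF, against 106, 109 and 49.1 TPM in PF replicates 1 to 3. PF replicate 4, with 650 TPM, was above every SF library. *PRKCA*, a protein kinase C that phosphorylates Cx43, was lower with −2.03 ± 0.64. The call of *PRKCA* was lost without PF replicate 1 (adjusted p of 0.13 in DESeq2) or PF replicate 2 (0.063), and with all 7 libraries (0.051).

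Among 20 genes of the cyclic nucleotide signal that passes through gap junctions, 4 were higher, 4 lower and 12 did not pass the test (8 of 20 called, against 19.1% of all genes tested), with a median of 0.14. *PRKAR2B*, a regulatory subunit of protein kinase A, had 303, 389 and 367 TPM in SF, against 131, 124, 110 and 104 TPM in PF replicates 1 to 4. The groups were far apart, and the log2 fold change was 1.65 ± 0.24. *ADCY9*, an adenylyl cyclase that makes cAMP, was higher by 1.49 ± 0.33. *IMPDH1*, an enzyme of guanine nucleotide synthesis, was higher by 1.49 ± 0.45, and its paralog *IMPDH2* was lower, with −1.19 ± 0.38. *PRKACA*, a catalytic subunit of protein kinase A, was higher by 2.96 ± 0.93. Without SF replicate 1 the calls of *IMPDH1* and *PRKACA* were lost (adjusted p of 0.064 and 0.13 in DESeq2), and without PF replicate 1 or 2 that of *IMPDH2* (0.094 each). With all 7 libraries the calls of *PRKACA* (2.07, adjusted p of 0.20) and *IMPDH2* (0.052) were also lost.

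The phosphodiesterase *PDE3A*, which degrades cAMP in the oocyte, had 1.06, 1.18 and 0.59 TPM in SF, against 4.8, 4.19 and 4.61 TPM in PF replicates 1 to 3 and 0.63 TPM in PF replicate 4. It was lower in SF, with −2.19 ± 0.40, and the adjusted p was 0.087 with all 7 libraries. The cGMP-dependent kinase *PRKG1* was lower with −2.17 ± 0.41, and the cGMP phosphodiesterase *PDE9A* with −1.45 ± 0.48. Leaving out any of 4 libraries (PF replicates 1 and 2, SF replicates 2 and 3) ended the call of *PDE9A* (adjusted p of 0.056 to 0.13 in DESeq2), as did fitting all 7 libraries (0.067) and a covariate for the library number (0.0503). The ligand *NPPC* (C-type natriuretic peptide), with 0.07, 5.97 and 23.1 TPM in SF and 0.00, 0.00, 14.8 and 10.2 TPM in PF replicates 1 to 4, and its receptor *NPR2*, with 15.1, 15.8 and 18.3 TPM in SF and 13.2, 18.7, 9.90 and 15 TPM in PF, overlapped between the groups.

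Among purinergic receptors and ectonucleotidases, which sense and degrade the ATP that pannexin channels release, 15 of 28 genes were tested. Of these, 2 were higher, 2 lower and 11 did not pass the test (4 of 15 called, against 19.1%), with a median of 0.40. *ALPL*, the alkaline phosphatase of the cell surface, had 80.2, 95.9 and 56.3 TPM in SF, against 43.4, 21.4, 8.68 and 7.66 TPM in PF replicates 1 to 4, and was higher by 1.82 ± 0.53. The adenosine receptor *ADORA1* was higher by 1.45 ± 0.45. *NT5E*, which makes adenosine from AMP, was lower with −1.80 ± 0.52, and the adenosine receptor *ADORA2B* with −3.79 ± 1.23. Each of these 4 calls was lost without PF replicate 2 (adjusted p of 0.056 to 0.12 in DESeq2) and without SF replicate 2 (0.053 to 0.073), that of *ADORA1* also without SF replicate 1 (0.078), and that of *ADORA2B* also without PF replicate 1 (0.11) and with all 7 libraries (0.19).

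Among 12 tested genes of the transzonal projections, the granulosa extensions that carry the junctions to the oocyte, 3 were higher in SF, none was lower and 9 did not pass the test (3 of 12 called, against 19.1%), with a median of 0.68. *MYO10*, a filopodial motor, had 30.5, 49.4 and 43.6 TPM in SF, against 23.3, 18.2 and 10.9 TPM in PF replicates 1 to 3 and 75 TPM in PF replicate 4. It was higher by 1.38 ± 0.35. *VCL*, the adhesion protein vinculin, was higher by 1.70 ± 0.49, and the polarity gene *PARD3* by 0.69 ± 0.25. For all 3 of these genes PF replicate 4 had a level above that of at least 2 SF libraries, and none was called with all 7 libraries (adjusted p of 0.83, 0.61 and 0.58 in DESeq2). The call of *VCL* was lost without PF replicate 1 or 2 (0.059 and 0.057), and that of *PARD3* without any 1 library other than SF replicate 3 (0.052 to 0.14), with the replicate block (0.060) and with a transcript length offset (0.093).

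**Figure D5:**
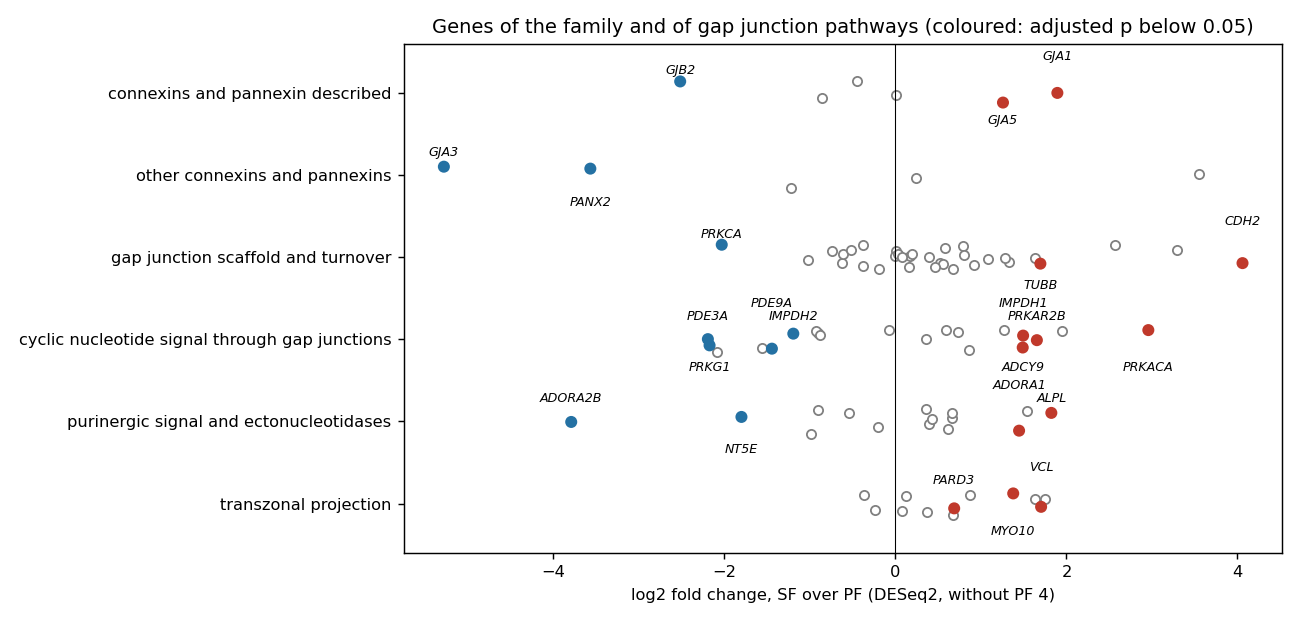
Log2 fold change, SF over PF, of every tested gene of the 6 lists (horizontal axis, DESeq2 without PF replicate 4), with 1 point per gene, filled red for genes higher and blue for genes lower in SF at an adjusted p below 0.05, open for the rest, and small vertical offsets to separate points. Calls lie on both sides of 0 in 4 of the 6 lists, only below 0 among the other connexins and pannexins and only above 0 among the transzonal projection genes.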

How the data were processed

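Total RNA of pooled whole follicles was amplified (SMART-Seq v4) and sequenced as paired reads. The authors trimmed reads with Trim Galore and quantified RefSeq transcripts with Salmon, and deposited estimated counts and TPM per transcript and library. Transcripts were matched by accession to RefSeq gene symbols, 50205 of 76123 (66.0%), and 9.71 to 10.7% of estimated counts were unmatched and left out. Both units were summed per gene, and counts were rounded. DESeq2 1.42.0 (Wald test, Benjamini-Hochberg adjustment over all genes, threshold 0.05) compared 3 SF with 3 PF libraries, leaving out PF replicate 4, as in the study. Confidence intervals of folds (95%) come from the SE. Within-library differences used log2(TPM + 1) and exact two-sided permutation tests over libraries (scipy 1.17.1).

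Alternatives were edgeR 4.0.16, limma 3.58.1 on log2(TPM + 1) or log2(TPM + 0.1), other size factors, a length offset, filters, all 7 libraries, covariates and leaving out libraries. The genes described and the gene lists were chosen with earlier results of these data known. The text names all 7 genes, other family genes with a mean of 1 TPM or more, and at most 4 called genes per list and direction. It also names the 3 genes most like *GJA1* and *GJA4*, and markers by list. *NPPC*, *NPR2*, *FLT1*, *CLDN5*, *ROBO4*, *TEK*, *KRT19*, *MSLN*, *CDH1* and family genes under 1 TPM were named after their values were seen. A few list genes are not reported here. Scripts were tested on simulated counts, where DESeq2 called more unchanged genes than its threshold allows. Replicates are separate pools, and no label gives the animals behind each, so p-values measure the spread between these pools. No 2 libraries agreed within sampling noise. The library number in the labels is the only batch sign, and its meaning was not stated in those labels.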

Additional observations from a re-analysis of the deposited data

Results flagged for a closer look

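Within the 4 PF libraries, 6 of the named genes had 1 library far from the other 3, where chance alone gives about 1 such group in 20 and 32 groups were examined. In PF replicate 4, *CDH2* was the highest at 172 TPM, *TUBB* at 650 TPM and *VCL* at 117 TPM, whereas *PDE3A* was the lowest at 0.629 TPM. *ADORA1* was the highest in PF replicate 1, at 19.3 TPM. *GJB1* was the highest in PF replicate 2, at 0.548 TPM. The source of these values was not tested.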

How the results depend on the processing

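DESeq2 called 2876 genes. Counts beyond 1.5 times this were 0 with edgeR (4044 at an unadjusted p below 0.05), 792 with limma on log2(TPM + 1), 2 on log2(TPM + 0.1), 0 without a filter (4043 unadjusted), 9014 with oocyte and 7892 with granulosa size factors, 858 with all 7 libraries and 1588 at a threshold of 0.01; leaving out 1 library gave 1887 to 3947 (lowest without PF replicate 2). Calls lost with edgeR had log2 fold changes of 1.92 (*GJA1*), 1.3 (*GJA5*) and −2.42 (*GJB2*). Limma gave 1.82 for *GJA1*, called with a pseudocount of 1 but not with 0.1 (1.82) or without a filter (1.82). *GJA5* had 1.08, 1.09 and 1.08, *GJB2* −2.41, −2.79 and −2.41, none called, and *PANX1* −0.071, −0.070 and −0.071. Oocyte size factors gave 2.06 for *GJA4*, 1.86 for *GJC1*, 2.53 for *PANX1* and −0.51 for *GJB2*. Granulosa size factors gave 0.38 for *GJA1*, −1.89 for *GJA4*, −0.25 for *GJA5*, −2.35 for *GJC1* and −1.43 for *PANX1*. With all 7 libraries *GJA1* had 1.61, *GJB2* −2.14 and *CDH2* −1.26, and *GJA4* minus the oocyte markers 1.44. Leaving out 1 library gave 0.87 to 1.53 for *GJA5*, −3.06 to −2.01 for *GJB2* and −0.21 to 0.21 for *PANX1*. Directions also turned under oocyte size factors for *PRKCA* (0.045), *PDE3A* (0.087), *PRKG1* (0.27), *IMPDH2* (1.23), *PDE9A* (0.95), *NT5E* (1.0) and *GJB5* (0.43), and under granulosa size factors for *MYO10* (−0.10) and *PARD3* (−0.78). DESeq2 gave no adjusted p to *TUBB* with all 7 libraries or to *VCL* with oocyte size factors. The 2 marker scalings shift all genes by construction, and the cause of the other changes was not tested.

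Same-numbered SF and PF libraries correlated at 0.14, −0.00 and 0.23 in their deviations from group means, so the numbers were not taken to pair samples. A fit with the replicate block called 4077 genes and kept the calls of *GJA1* (1.93), *GJA5* (1.16) and *GJB2* (−2.73), and among the genes named by rule it ended the call of *PARD3* alone (0.68, adjusted p of 0.060 in DESeq2). The block gave an exact permutation p of 0.25, 0.25 and 0.5 for the 3 within-library differences. PF replicate 2 correlated best with SF replicate 1.

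Rare connexins (*GJB6*, *GJA3*) are limited by depth. Unmatched transcripts were not assigned to any gene.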
